A study of Mus musculus with 2 samples.

Results

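Intergenic open regions lying 1 to 50 kb from a gene were described in adult neural retina of C57BL/6 mice. The data were 1 wild-type and 1 Gabra3 knockout ATAC-seq library. Gabra3 encodes an alpha subunit of GABA-A receptors, the chloride channels opened by the inhibitory transmitter GABA. In ATAC-seq the Tn5 transposase inserts sequencing adapters into accessible DNA, and counting these insertions over a region measures how open it was. Each library was made from 20000 nuclei of flash-frozen tissue and read as 75 bp single-end reads. The labels give no sex or day of collection and do not say whether tissue was pooled.

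The regions were chosen from the summed insertions of both libraries. Windows of 200 bp in steps of 50 bp that held more insertions than the genome and the surrounding 10 kb (Poisson p under 1e-05) were merged within 150 bp, which gave 36783 open regions. Of these, 18000 were autosomal and held at least 30 insertions, and 2580 of them lay outside every protein-coding gene and 1 to 50 kb from the nearest gene end. These 2580 regions are the members. The others were 9368 regions within 1 kb of a gene end, 5315 inside genes and 737 over 50 kb out. Before the minimum of 30 insertions, 7232 regions met the position rule, so 4652 were set aside as too thinly covered. Because the rule used the summed insertions, the number, width and level of the members are descriptions. The split between the libraries was not used by the rule.

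Open DNA between genes holds many enhancers, short stretches that bind transcription factors and act on promoters at a distance. It also includes promoters of non-coding RNA genes, tRNA genes and boundary elements. In the retina, enhancers of photoreceptor genes are known to be bound by the homeodomain factor CRX, and their opening accompanies photoreceptor differentiation. The nearest protein-coding gene is used below as a landmark and not as a target.

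The wild-type library held 9170838 reads and the knockout library 9038110, and 93.6% and 93.4% of them reached a mapping quality of 10. Counting each position and strand once left 7635799 wild-type and 7646373 knockout insertions, with 11.0% and 9.41% of reads set aside as repeats. Ends of rod photoreceptor genes were open in 14 of 16 cases, against 0 of 15 vascular, 2 of 15 lens, 2 of 15 pigment epithelium and melanocyte and 3 of 15 microglia and immune genes. Among other retinal cells the ends were open in 0 of 7 horizontal, 2 of 19 amacrine, 4 of 16 ganglion, 5 of 18 bipolar and 4 of 13 cone genes and in 12 of 24 Müller glia genes. Immediate early genes, which mark no cell type, had 17 of 19 and clock genes 14 of 18. Photoreceptor transcription factor genes had 12 of 14 and eye field and developmental factor genes 9 of 24. GABA-A and glycine receptor genes had 8 of 23 and astrocyte and oligodendrocyte genes 1 of 12. The share over all protein-coding genes is not given here, so these counts compare lists only. The body of Gabra3 held 126 wild-type and 121 knockout insertions and no open region, so the genotype was not checked by these data. Each ratio is the log2 of knockout to wild-type insertions, scaled to autosomal insertions in open regions, with a pseudocount of 0.5. Since each genotype has 1 library, ratios describe these libraries and not the conditions, and no p is given. Values in brackets after a ratio are exact (Clopper-Pearson) 95% intervals, which cover counting error only. In bulk tissue, fewer cells of a type and fewer insertions per cell cannot be told apart.

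Many of the strongest members lay at starts of non-coding genes, and the sequence there could be read from RefSeq promoter windows on GRCm38 (mm10), 250 bases before to 50 bases after the start. The windows below, 5′ to 3′ on the strand of the gene, come from 5 of these members. Mir22hg is the host transcript of miR-22, Chaserr lies beside the chromatin remodeller gene Chd2, Snhg8 hosts a small nucleolar RNA, and Mirc35hg is the host transcript of the photoreceptor miRNAs miR-183, miR-96 and miR-182. Capitals mark every match, on either strand, to one of 9 motifs searched. They are CCAAT (bound by NF-Y), GGATTA (CRX and OTX), CCGGAAG (ETS factors), TATAAA (bound by TBP), CAGCTG (E-box), TAATTA (homeodomain), AGGTCA (nuclear receptors), TGANTCA (AP-1) and TGACGTCA (CREB).
Mir22hg (chr11:75461289-75461588, plus strand): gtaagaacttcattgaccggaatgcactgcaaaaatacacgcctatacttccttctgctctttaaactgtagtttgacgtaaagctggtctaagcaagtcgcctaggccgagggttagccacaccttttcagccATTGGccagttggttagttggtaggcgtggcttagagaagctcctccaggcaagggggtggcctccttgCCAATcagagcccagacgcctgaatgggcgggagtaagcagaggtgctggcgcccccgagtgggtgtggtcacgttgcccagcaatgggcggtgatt
Chaserr (chr7:73558346-73558645, minus strand): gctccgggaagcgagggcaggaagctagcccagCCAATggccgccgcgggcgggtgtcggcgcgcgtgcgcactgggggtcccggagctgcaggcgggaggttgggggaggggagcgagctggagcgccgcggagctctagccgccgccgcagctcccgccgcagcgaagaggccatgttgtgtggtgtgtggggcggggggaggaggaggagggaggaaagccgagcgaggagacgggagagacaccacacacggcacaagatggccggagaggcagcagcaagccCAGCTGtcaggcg
2210406O10Rik (chr5:36464805-36465104, minus strand): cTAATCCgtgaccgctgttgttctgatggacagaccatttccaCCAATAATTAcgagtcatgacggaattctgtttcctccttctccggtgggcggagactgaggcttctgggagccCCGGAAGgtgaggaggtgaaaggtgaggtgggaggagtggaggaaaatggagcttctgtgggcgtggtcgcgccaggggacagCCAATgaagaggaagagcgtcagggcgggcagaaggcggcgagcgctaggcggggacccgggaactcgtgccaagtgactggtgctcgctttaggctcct
Snhg8 (chr3:123508287-123508586, minus strand): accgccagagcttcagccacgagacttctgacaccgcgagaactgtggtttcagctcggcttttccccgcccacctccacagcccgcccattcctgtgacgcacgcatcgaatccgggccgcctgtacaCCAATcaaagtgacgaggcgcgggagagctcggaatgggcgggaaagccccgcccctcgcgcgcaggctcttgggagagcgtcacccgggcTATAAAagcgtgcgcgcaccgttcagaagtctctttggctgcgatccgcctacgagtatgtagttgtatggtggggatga
Mirc35hg (chr6:30174076-30174375, minus strand): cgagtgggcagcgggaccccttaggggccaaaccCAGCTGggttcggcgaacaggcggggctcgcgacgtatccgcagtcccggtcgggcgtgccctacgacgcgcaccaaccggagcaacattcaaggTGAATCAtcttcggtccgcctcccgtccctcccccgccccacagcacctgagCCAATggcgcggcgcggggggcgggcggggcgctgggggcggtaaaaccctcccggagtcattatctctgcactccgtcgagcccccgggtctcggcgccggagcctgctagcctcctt
Each of the 5 windows held at least 1 CCAAT or its reverse complement ATTGG, and Snhg8 also had a TATAAA. In 2210406O10Rik a CCAAT and a TAATTA overlap, and a GGATTA stands on the opposite strand as TAATCC at its left end. A match is a description of letters and not a bound site.

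These starts carried some of the highest counts among the members. The Mir22hg member (chromosome 11, 75461051 to 75461850) held 231 insertions in the wild-type and 225 in the knockout library (log2 ratio 0.02, -0.25 to 0.29). The Chaserr member (chromosome 7, 73557801 to 73559050), 16.1 kb from Chd2, held 274 and 267 (0.02, -0.23 to 0.27). The 2210406O10Rik member, 8.22 kb from Tada2b, held 207 and 200 (0.01, -0.28 to 0.30). At Snhg8, 1.35 kb from Prss12, the counts were 204 and 175 (-0.16, -0.46 to 0.14). For all 4 regions the libraries differed by less than counting error allows.

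Across the members, 148 contained the start of a long non-coding RNA (lncRNA) gene. Insertions were densest 60 to 40 bp upstream of those starts, where the summed counts were 474 in the wild-type and 467 in the knockout library. Summed over both libraries, the 200 bp upstream held 26.1 insertions per start per 100 bp and the 200 bp downstream held 18.0. At the outer ends of the profile the values were 2.75 upstream and 2.85 downstream. The windows at these 148 starts were rich in CpG, with a median of 16 per 300 bp, against 4 at 9152 other autosomal lncRNA starts and 14 at 16456 protein-coding starts. CCGGAAG was found in 22 of the 148 (14.9%), against 3.88% of other lncRNA and 12.2% of protein-coding windows. GGATTA was found in 20 (13.5%), against 8.28% and 6.49%. AGGTCA stood in 18.2% of the 148, 18.9% of other lncRNA and 14.5% of protein-coding windows, and CAGCTG in 18.9%, 17.8% and 15.2%. CCAAT was found in 39.2%, 35.7% and 38.9% in the same order. TATAAA was found in 10.8%, 15.4% and 13.5%. TAATTA stood in 1.35%, 6.53% and 4.61%, and TGANTCA in 3.38%, 9.53% and 7.17%. TGACGTCA was found in 2.70%, 0.994% and 2.42%. CpG content differs between these sets of windows, and its part in the motif shares was not tested.

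**Figure D1:**
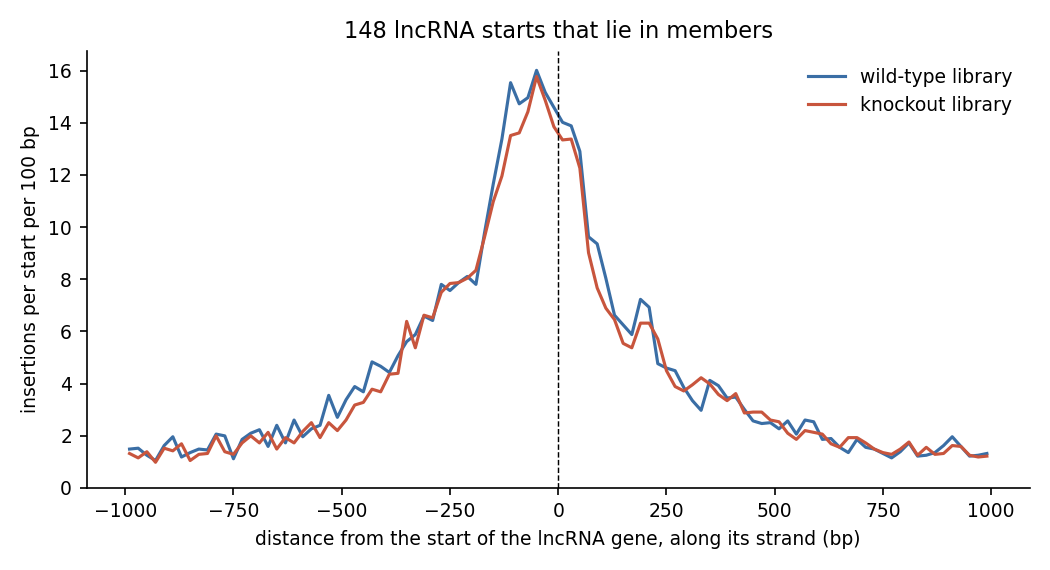
Insertions per start and per 100 bp, in bins of 20 bp, around the 148 lncRNA starts that lie in members, with distance along the strand of the gene on the horizontal axis. Both libraries peak in the bin 60 to 40 bp upstream of the start, and the 200 bp upstream hold more insertions than the 200 bp downstream.

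MicroRNA genes were few but included several of the retina and brain. MicroRNAs are short RNAs that pair with mRNAs through their seed, bases 2 to 8, and lower their output. Of 919 autosomal hairpins in the RefSeq table, 5 overlapped a member, 10 lay within 1 kb and 50 within 10 kb. The gene table, which lists more miRNA genes, put 14 within 1 kb of 13 members. Mature sequences of those the results turn on are given with the seed in capitals. They come from the hairpin clusters of Mir132 and Mir183, from single hairpins and from let-7 genes.
miR-132-3p: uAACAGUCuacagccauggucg
miR-212-3p: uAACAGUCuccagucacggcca
miR-183-5p: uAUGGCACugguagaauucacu
miR-96-5p: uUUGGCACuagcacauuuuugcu
miR-182-5p: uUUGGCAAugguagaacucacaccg
miR-9-5p: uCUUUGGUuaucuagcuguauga
miR-210-3p: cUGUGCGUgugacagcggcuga
miR-22-3p: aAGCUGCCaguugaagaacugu
let-7i-5p: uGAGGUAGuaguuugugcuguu
let-7a-5p: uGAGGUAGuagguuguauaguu
let-7f-5p: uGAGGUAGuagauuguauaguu
let-7d-5p: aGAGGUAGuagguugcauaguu
miR-132-3p and miR-212-3p share the seed AACAGUC, and the 4 let-7 forms share GAGGUAG. The seeds of miR-182-5p and miR-96-5p, UUGGCAA and UUGGCAC, differ only in the last base.

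Mir132 and Mir212, whose transcription is known to follow neuronal activity through CREB, lie inside a single member (chromosome 11, 75172901 to 75173900), 2.04 kb from Ovca2. It held 85 insertions in the wild-type and 110 in the knockout library (log2 ratio 0.43, 0.01 to 0.86). It ranked in the top 3 among members with at least 100 insertions and one direction on both strands. Scaled to all autosomal insertions the value was 0.37 (-0.05 to 0.80), so its interval then included 0. The member over Mirlet7i, 5.36 kb from Mon2, held 112 and 118 (0.13, -0.25 to 0.52). Mir760 lies in a member that also holds the tRNA gene n-TRtct2, 7.53 kb from Dnttip2, with 246 and 263 (0.16, -0.10 to 0.41). Mir210, a miRNA induced by low oxygen, lies 8 bp outside a member with 183 and 174 (-0.01, -0.32 to 0.29).

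Weaker members stood within 1 kb of further miRNA genes, among them Mir124a-3 and Mir9-3. Mir124a-3, one of the genes of the neuronal miR-124, had a member on each side, with 43 and 41 insertions in one and 33 and 28 in the other. Beside Mir9-3 a member held 25 and 23, and beside Mir193a one held 28 and 21. Mir713 was overlapped by a member with 36 and 32. The members within 1 kb of Mir6516, Mir688, Mir145a and Mir1949 held 55 and 60, 26 and 22, 20 and 17, and 65 and 43, and Gm51285 shared the member of Mir9-3. The intervals of all these members included 0. A member 7.43 kb from Mirlet7a-1, beyond which Mirlet7f-1 and Mirlet7d follow, held 340 and 332 insertions (0.02, -0.20 to 0.25) and was the fourth strongest of all. The polycistron that begins with Mir17 had a member 1.17 kb away with 69 and 68. Mir17, Mir22, Mirlet7a-1 and its neighbours were chosen after their values were seen.

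The group around the hairpins of Mir183, Mir96 and Mir182 was the strongest group of members apart from a repeat-rich pair near Col19a1, which is described below. These 3 miRNAs are among the most abundant of photoreceptors, and their loss is known to harm rods and cones. Members were chained into groups across gaps of up to 12500 bp, and here 6 members spanned 12.9 kb (chromosome 6, 30167251 to 30180150), and Nrf1 was the nearest protein-coding gene. They held 476 wild-type and 437 knockout insertions (-0.06, -0.26 to 0.13). The member at the start of Mirc35hg (30174001 to 30174550) held 105 and 104, and the widest one just upstream of it (30174751 to 30175750) held 182 and 147 (-0.25, -0.57 to 0.07). A member inside the host gene (30172601 to 30173050) held 83 and 90, and the one between the hairpins of Mir96 and Mir182 held 59 and 55. Further upstream, 2 short members in the lncRNA gene Gm31221 held 27 and 20 and 20 and 21. The same peaks stood in both libraries.

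**Figure D2:**
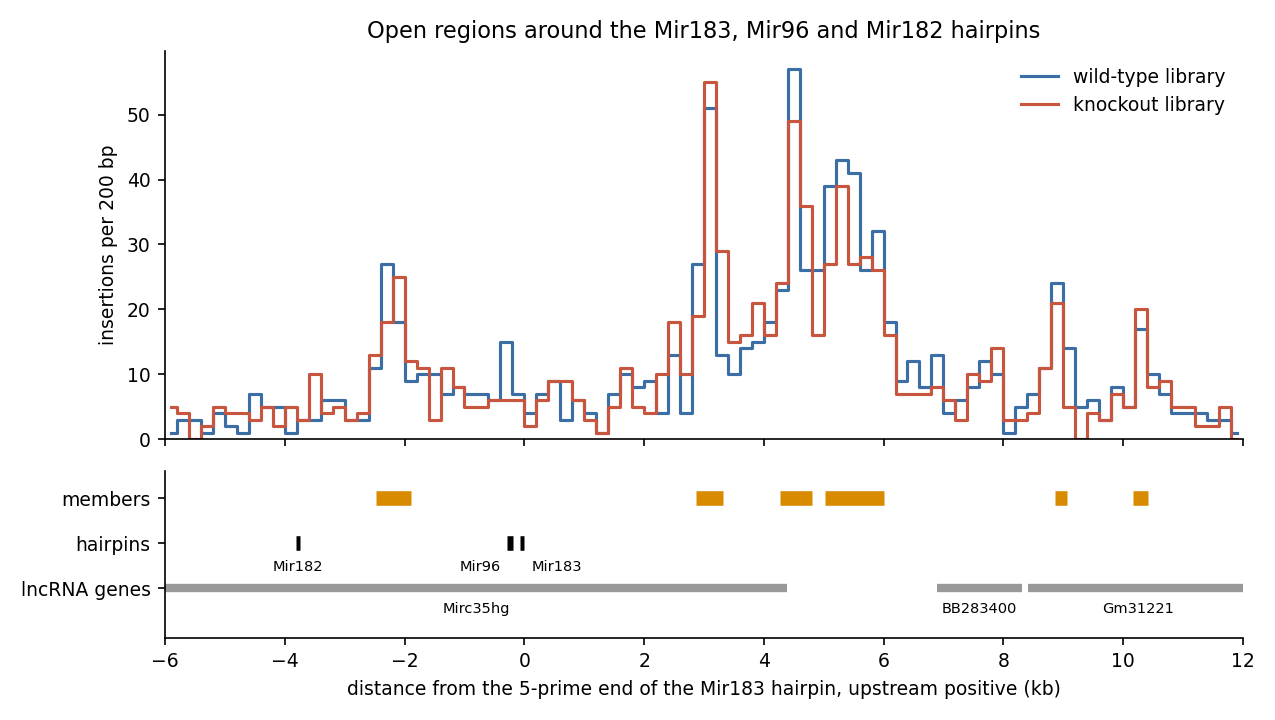
Insertions per 200 bp in the 2 libraries along the miR-183/96/182 locus, with distance in kb from the 5-prime end of the Mir183 hairpin and upstream positive. Bars below mark the 6 members, the 3 hairpins and the lncRNA genes; the tallest bins lie 3.0 to 3.2 kb (51 wild-type and 55 knockout insertions) and 4.4 to 4.6 kb (57 and 49) upstream.

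Genes other than protein-coding ones accounted for a minority of the members. Of the 2580, 509 (19.7%) lay within 1 kb of the end of such a gene, 305 (11.8%) inside one and 1766 (68.4%) near none. The 509 were stronger, with a median of 68 insertions, against 49 inside such genes and 47 near none. By type, 384 members lay at ends of lncRNA genes, 41 at pseudogenes, 20 at small nuclear RNA genes and 17 at small nucleolar RNA genes. At lncRNA ends the strongest beside Chaserr and Mir22hg were 1700096K18Rik (278 and 261), 1700012D14Rik (228 and 231), the pair Gm38882 and Gm38883 (200 and 215), Gm2885 (196 and 217) and 2210406O10Rik.

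tRNA genes, which RNA polymerase III transcribes from promoters inside the gene, stood at 59 members. These held 89 tRNA genes, up to 4 in one member, and 15 of the 59 lay on chromosome 13. Their median was 121 insertions, above the 50 of all members, with a range of 30 to 509. Summed, they held 4067 wild-type and 3887 knockout insertions (-0.01, -0.07 to 0.06), with 27 above 0 and 32 below. The member with n-TRacg3, n-TYgta1, n-TYgta2 and n-TAagc14, 15.1 kb from Trim55, held 246 and 218 (-0.12, -0.39 to 0.15). That of n-TIaat17, nearest to Haao, held 190 and 210, that of n-TNgtt14 170 and 165, and that of n-TPtgg8 and n-TPagg7 143 and 138. One group of 5 tRNA members between Abt1 and Btn1a1 (chromosome 13, 23430701 to 23453900) held 296 and 234 (-0.28, -0.53 to -0.03), and each of the 5 had fewer insertions in the knockout library.

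The members as a whole were narrow and weak compared with gene ends. Their median width was 450 bp (quartiles 400 and 600) and their median level 50 insertions (37 and 84), where regions at gene ends had 800 bp and 167, regions inside genes 500 bp and 55, and regions over 50 kb out 500 bp and 46. Per 100 bp the medians were 10.8 for members and 20.8 at gene ends. Together the members covered 1.35 Mb. Called again in each library alone, 95.4% were found in the wild-type and 92.8% in the knockout library, and 2312 (89.6%) in both. All 18000 autosomal regions had 95.9%, 94.5% and 91.8%. The share in both was 86.4% for regions inside genes and 95.6% at gene ends. The share called in both was 84.3% for members 1 to 5 kb out and 93.1% at 5 to 10 kb. Reads of low mapping quality were absent from 2448 members (94.9%).

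Among the members, median strength was similar in the 4 distance bands below. All members had passed the minimum of 30 insertions, which set aside 4652 of 7232 regions. The medians therefore cannot show whether distance matters for strength. The median distance was 10.2 kb (quartiles 4.44 and 21.0). There were 728 members at 1 to 5 kb, 554 at 5 to 10 kb, 608 at 10 to 20 kb and 690 at 20 to 50 kb, with medians of 51, 50, 48 and 50 insertions. The nearest genes numbered 1995, of which 1574 had 1 member and 31 had 4 or more, up to 7. Where the strand of the nearest gene was known, 1042 members lay upstream and 977 downstream, and the upstream share was 48.2% at 1 to 5 kb, 49.8%, 53.1% and 55.4% at 20 to 50 kb. Density per Mb was highest on chromosome 11 (1.53) and lowest on chromosome 3 (0.688).

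At the limits of the rule, Snrpn and H2-D1 were nearest to members with 30 insertions (17 and 13, and 18 and 12), and Ifih1 and Amer3 to regions left out with 29 (16 and 13, and 13 and 16). In all, 114 members held exactly 30 and 113 regions just missed with 29. By distance, members at Sec14l5 (1006 bp; 16 and 16) and Zfp777 (1010 bp; 23 and 32) were just inside, and regions at F3 and Ier2 (both 999 bp; 49 and 46, and 101 and 83) just outside. At the far limit Alx4 (49884 bp; 42 and 26) and Slc38a1 (49818 bp; 100 and 93) were inside, and Dyrk2 and Gatb (both 50102 bp; 20 and 18, and 51 and 49) outside.

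Repeated reads set 4 members apart. Over 90% of their reads repeated a position and strand, where the next highest member had 67.5% and the median was 16.0%. The largest (chromosome 1, 24611501 to 24615450), 23.6 kb from Col19a1, held 5742 and 5515 insertions, and 71.2% of all its positions and strands were taken. Counting each position once therefore left it little room to differ. It overlaps the pseudogenes Gm10222 and Gm10925, the second of which carries the synonym mt-Atp6, the name of a mitochondrial gene. Nuclear copies of mitochondrial DNA are a known place for reads of mitochondrial origin to align. Its neighbour (24615651 to 24616200) held 635 and 618, a region 31.9 kb from Eea1 357 and 341, and one 12.7 kb from Abcb11 92 and 91. These 4 held 13391 insertions, 6.57% of those in all members, and are included in the counts below unless said. Where their reads come from was not tested.

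The 15 strongest members included 3 of these 4. Beside those already described, the others were nearest to Zfp958 (334 and 259; -0.31, -0.55 to -0.07), Trappc9 (266 and 245), Mier3 (238 and 245), Nr4a3 (222 and 218) and Pisd (220 and 208). The Zfp958 member (chromosome 8, 4677201 to 4678950), 44.6 kb out, was the only one of the 15 whose interval left out 0. Members came in groups: 766 (29.7%) had another within reach, in 330 groups, of which 7 held 5 or more. The largest group by number, 7 members between Fosb and Ercc1, held 282 and 257 insertions (-0.07, -0.32 to 0.17). The 5 between Mreg and Pecr held 324 and 320 (0.04, -0.19 to 0.27), the 6 between Acbd3 and H3f3a 300 and 319 (0.15, -0.08 to 0.38), the 4 near Haao 293 and 306 (0.12, -0.11 to 0.36) and the 2 near Cct8l1 317 and 300 (-0.02, -0.25 to 0.21).

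Photoreceptor loci carried members close to the genes. Between Gdf2 and Rbp3, the gene of the retinoid-binding protein of the space around photoreceptors, 3 members held 246 and 259 (0.13, -0.12 to 0.39). The one 1.05 kb upstream of Rbp3 held 111 and 106, and one 2.80 kb downstream of Gdf2, in the same interval, held 104 and 109. Prph2, which shapes the rims of outer segment discs, had a member 1.22 kb downstream with 101 and 75 (-0.37, -0.82 to 0.07) and another 6.13 kb upstream with 58 and 46. Nrl, the factor that sets rod fate, had one 1.72 kb upstream with 40 and 50. With Pde6a and Cngb1 this made 5 members at 4 of 16 rod genes, with 261 and 225 insertions in all (-0.15, -0.42 to 0.11). Of all 21896 protein-coding genes, 1995 were nearest to a member. Of cone genes, only Thrb had members, with 39 and 28 and 19 and 18.

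Transcription factor genes of photoreceptors, which include Crx, Otx2 and Nrl, carried more members than rod genes did. Over 14 genes, 9 had 16 members in all, with 669 wild-type and 682 knockout insertions (0.09, -0.07 to 0.24), and 11 lay above 0 and 5 below. Of the 11, 4 had equal counts in both libraries and lay above 0 only through the scaling. Scaled to all autosomal insertions, 7 lay above 0 and 9 below, where all members had 908 above and 1672 below. Mef2d had one 5.36 kb downstream with 172 and 152 (-0.12, -0.44 to 0.20), and Crx, the master homeodomain factor, one 1.3 kb downstream with 82 in each library. Otx2, which acts before Crx, had 3, the strongest 47.4 kb downstream with 48 and 56. Rax, an early eye field factor, had 3 with 30 and 37, 18 and 27, and 17 and 18. None of the 16 had an interval that left out 0. Whether the factor genes hold more members than other lists was not tested.

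Members at genes of other retinal cells varied in strength. Their median insertions were 78.5 for bipolar, 63.5 for amacrine and 46 for Müller glia genes. Rod genes had 90, photoreceptor transcription factor genes 67.5 and cone genes 52. A few genes, such as Otx2, Nrl, Rax, Sox2 and Meis2, stand in more than one list. Bipolar genes had 8, led by those of Bhlhe23 (74 and 52) and Irx5 (71 and 51), with 314 and 298 in all. Amacrine genes had 6, led by Slc6a9, the glycine transporter gene, with 85 and 61 at 21.0 kb and 58 and 55 at 4.76 kb. The 6 held 218 and 229 in all (0.13, -0.14 to 0.40), while their median was 0.52. The members of Meis2, Ebf2 and Th had more insertions in the knockout library, and each held fewer in all than either member of Slc6a9. Müller glia genes had 15 with 431 in each library (0.06, -0.14 to 0.25), led by Nfib (108 and 91) and Id2 (34 and 39). Onecut3, a horizontal cell factor, had 1 with 61 and 68, and Rbpms, a ganglion cell marker, 1 with 17 and 20. Eye field and developmental factors had 14 with 367 and 368, led by those of Vax2 (73 and 55, and 38 and 47). The astrocyte and oligodendrocyte genes Mog and Mbp had 3 with 72 and 67, led by 30 and 36 and 24 and 18. C1qa and Runx1, of microglia and immune cells, had 33 and 36 and 28 and 11 (-1.25, -2.44 to -0.24, for Runx1), Mlana and Dct, of pigment cells, 16 and 17 and 19 and 11, and the lens gene Cryaa 22 and 24. No GABA-A or glycine receptor gene of 23 and no vascular gene of 15 had a member. Of all 21896 protein-coding genes, 1995 were nearest to a member, so neither absence can be read as particular to its list. Genes on the X chromosome, such as Gabra3, could have no member because members are autosomal.

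Genes induced by activity had the strongest members of the lists given with more than 1 member apart from the clock genes, with a median of 145 insertions against 149. Distal enhancers around Fos that open with neuronal activity are well known. Of 19 immediate early genes, 9 had 14 members, with 1274 wild-type and 1155 knockout insertions (-0.08, -0.20 to 0.03). Of the 14, 3 lay above 0 and 11 below, where all members had 1152 above and 1428 below. The 14 are not independent, since 5 lie at Fos, and their split was not tested. Scaled to all autosomal insertions, the sum gave -0.14 (-0.26 to -0.03). All members under that scaling had -0.10 (-0.11 to -0.09), which lies inside this interval. Nr4a3 led at 1.33 kb (222 and 218; 0.03, -0.24 to 0.31). Fos had 5: at 37.2 kb upstream with 101 and 77, at 17.99 kb upstream with 171 and 173, at 1.34 kb upstream with 60 and 54, and downstream at 8.48 kb with 142 and 130 and at 10.5 kb with 17 and 13. Nr4a1 had 147 and 137 at 7.05 kb, and Atf3 136 and 125 at 40.6 kb. Only the member 2.57 kb from Egr3 had an interval below 0, with 28 and 11 (-1.25, -2.44 to -0.24). The clock genes Hlf (112 and 113), Bhlhe41 (111 and 108), Tef (78 and 71), Nr1d1 (23 and 31) and Arntl (24 and 21) had 1 each, with 348 and 344 in all (0.04, -0.18 to 0.26).

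The members as a class held slightly fewer insertions in the knockout library. They held 105272 of the wild-type autosomal insertions (1.41%, exact 95% interval 1.40 to 1.42) and 98431 of the knockout ones (1.32%, 1.31 to 1.32). All open regions together held 19.6% and 18.8%. Relative to open regions the members' summed log2 ratio was -0.04 (-0.05 to -0.03), and without the 4 repeat-rich members it was also -0.04 (-0.05 to -0.03). Regions inside genes had -0.01 (-0.02 to 0.00), those over 50 kb out -0.06 (-0.08 to -0.03) and those at gene ends 0.02 (0.02 to 0.03). Scaled to all autosomal insertions, members had -0.10 (-0.11 to -0.09) and gene ends -0.04 (-0.04 to -0.03), so the sign at gene ends turned. This scaling moved every ratio by the same -0.06, so it could not change the order of the classes. The libraries also differ in repeats (11.0% and 9.41%) and in the share of insertions in open regions, and the part of these in the class ratios was not tested.

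Within the members, 1152 (44.7%) lay above 0 and 1428 below, a median of -0.03. Of all 18000 regions 50.3% lay above 0, and of those inside genes 47.9%. Among the 1152, 147 had equal counts in both libraries and lay above 0 only through the scaling. Scaled by the trimmed mean of M values, 1248 members lay above 0 and 1332 below. By distance the summed ratios were -0.05 (-0.08 to -0.03) at 1 to 5 kb, -0.04, -0.04 and -0.03 (-0.05 to -0.004) at 20 to 50 kb, with overlapping intervals. Downstream members had -0.05 (-0.08 to -0.03) and upstream ones -0.03 (-0.05 to -0.01). Scaled by the trimmed mean of M values, the upstream members had -0.01 (-0.03 to 0.01) and those at 5 to 10, 10 to 20 and 20 to 50 kb -0.01 (-0.04 to 0.01), -0.02 (-0.04 to 0.01) and -0.01 (-0.03 to 0.02), so these intervals included 0, while those at 1 to 5 kb and downstream did not. Members near no other gene had -0.05 (-0.06 to -0.03), and those at ends of other genes -0.01 (-0.04 to 0.01), which became 0.01 (-0.01 to 0.03) when scaled by the trimmed mean of M values.

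**Figure D3:**
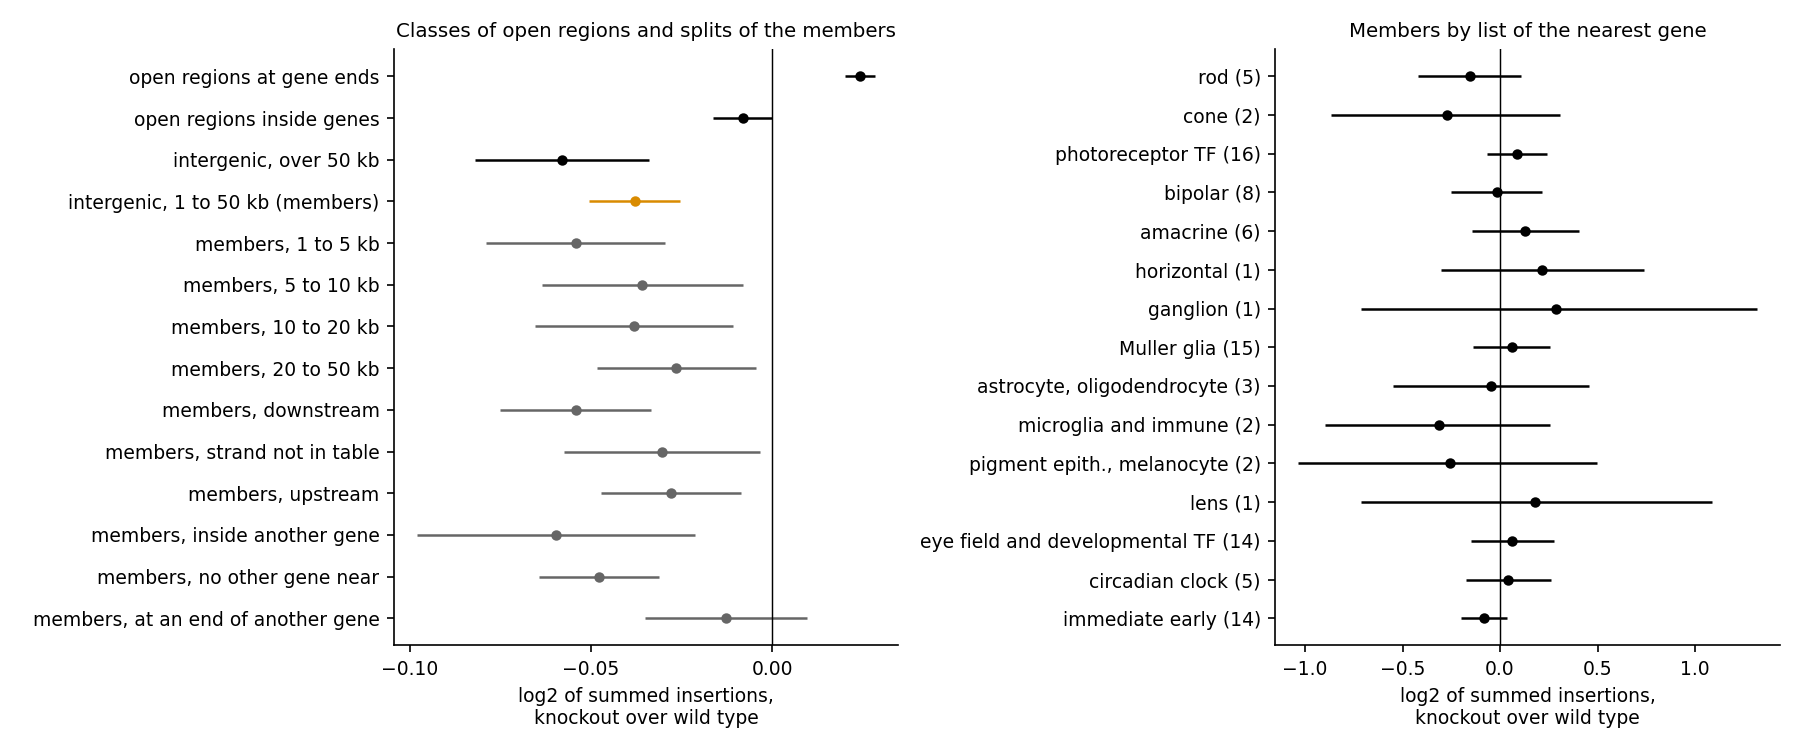
Log2 of summed insertions, knockout over wild type, with exact 95% counting intervals as bars, for classes of open regions with splits of the members (left) and for gene lists with the number of members in brackets (right, without housekeeping genes). The members sit at -0.04, between regions inside genes at -0.01 and regions over 50 kb out at -0.06, and gene ends sit at 0.02.

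Few members stood far apart, and those that did were thinly covered. At 2-fold or more, 16 members were higher in the knockout library (0.62%) and 35 lower (1.36%), where all 18000 autosomal regions had 0.439% and 0.678% and regions inside genes 0.734% and 0.941%. All 16 higher and 33 of the lower ones held 30 to 49 insertions, and the other 2 lower ones held 50 to 99. At 1.5-fold, 120 were higher (4.65%) and 192 lower (7.44%), against 3.37% and 4.43% of all regions and 5.17% and 6.55% of those inside genes. Scaled to all autosomal insertions, the split at 1.5-fold was 85 higher and 256 lower. This scaling moved every region by -0.06, and under it all 18000 regions had a summed ratio of -0.05. Their 1.5-fold split under this scaling was not counted, so the 85 and 256 cannot be read as particular to the members. The counting interval lay wholly above 0 for 26 members (1.01%) and wholly below for 55 (2.13%), against 1.74% and 1.53% of all regions, many of which are far better covered, and 1.35% and 1.88% of those inside genes.

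Coverage decided how much could be seen. The SD of the log2 ratio was 0.45 for the 1287 members with 30 to 49 insertions, 0.34 for the 805 with 50 to 99 and 0.22 for the 488 with 100 or more. Among the 488, 0 were 1.5-fold higher and 5 (1.02%) were 1.5-fold lower, and for 472 (96.7%) the interval lay within 2-fold. Regions inside genes with 100 or more insertions had 0.595% higher and 0.744% lower, and those at gene ends 0.578% and 0.237%. At 30 to 49 insertions only 5.44% of members had an interval within 2-fold, so for most of them the interval reached past 2-fold in at least one direction. At that level 7.54% of members were 1.5-fold higher and 11.3% lower, against 8.97% and 11.2% of regions inside genes and 9.38% and 10.9% at gene ends. Median ratios in the same bin were -0.07 for members and -0.02 inside genes.

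**Figure D4:**
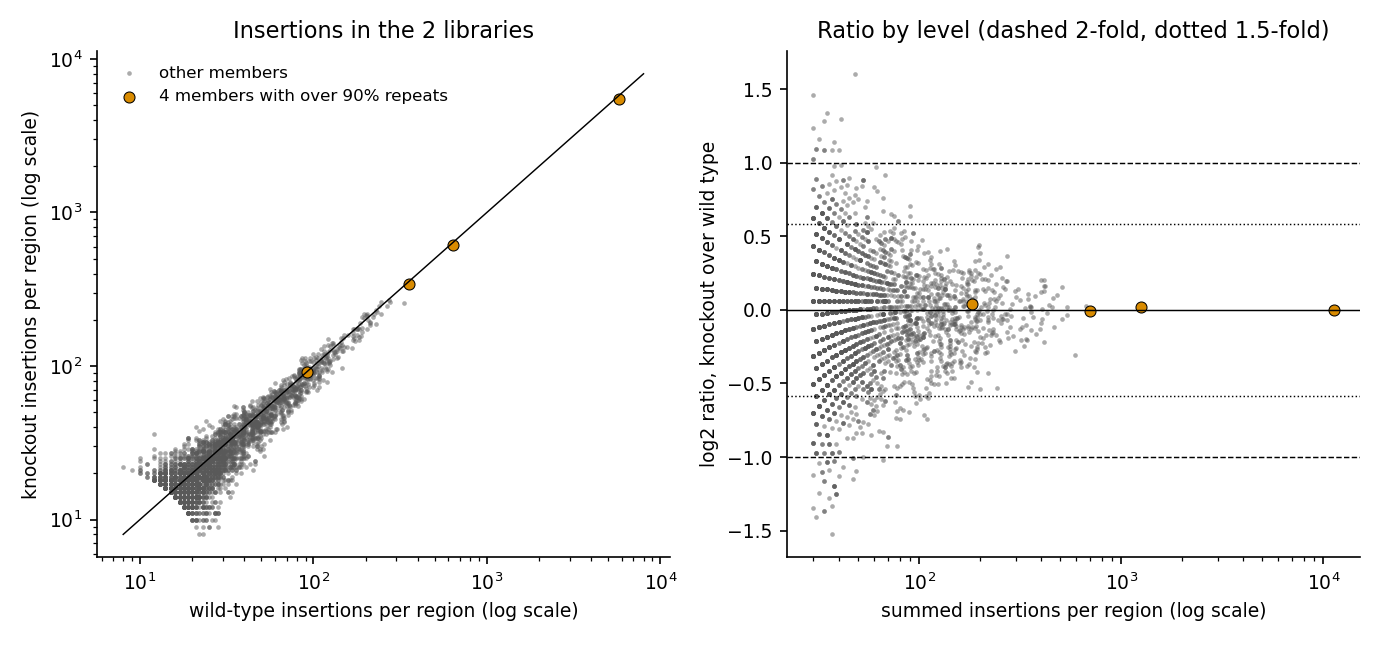
Left, wild-type against knockout insertions of each of the 2580 members on log axes, with the line of equal counts. Right, log2 ratio against summed insertions (log axis) with lines at 1.5-fold and 2-fold; the spread narrows with level, and the 4 repeat-rich members (filled circles with outline) lie at or near 0.

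**Figure D5:**
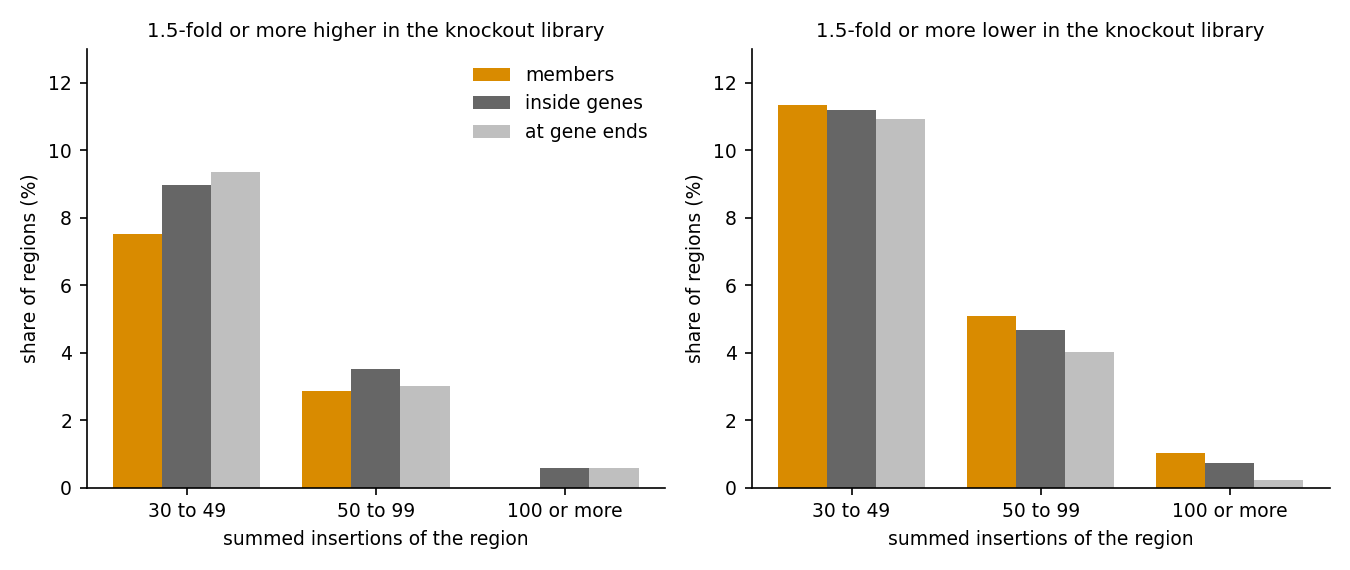
Share of regions at 1.5-fold or more higher (left) or lower (right) in the knockout library, by summed insertions, for members, regions inside genes and regions at gene ends. In the bin of 30 to 49 insertions 7.54% of members were higher and 11.3% lower, and in the bin of 100 or more 0 and 1.02%. Regions inside genes had 8.97% and 11.2% in the first of these bins and 0.595% and 0.744% in the second. Those at gene ends had 9.38% and 10.9%, and 0.578% and 0.237%.

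Among well covered members, 5 (1.02%) were at least 1.5-fold lower in the knockout library. Regions of 100 or more insertions had 0.744% lower inside genes and 0.237% at gene ends. With at least 100 insertions and one direction on both strands, the lowest member lay 1.06 kb from Mgarp, whose protein localizes to mitochondria (chromosome 3, 51386701 to 51387350). It held 70 and 40 insertions (-0.74, -1.35 to -0.17). The next was nearest to Mvk (67 and 39; -0.71, -1.33 to -0.13). One 0.071 kb from the end of Neat1, the lncRNA that builds paraspeckles, with Frmd8 as nearest gene, held 62 and 39 (-0.60, -1.23 to -0.01). Crb2, a polarity gene of photoreceptors and Müller glia, had 68 and 43 at 3.88 kb (-0.60, -1.19 to -0.03), and Fabp12 66 and 42. Lrrc74a (61 and 39), Sgip1 (68 and 44) and Adcy1 (120 and 79; -0.54, -0.97 to -0.12) completed the 8. Scaled by the trimmed mean of M values, the intervals of the members at Frmd8 (-1.21 to 0.01), Fabp12 (-1.17 to 0.01), Lrrc74a (-1.18 to 0.04) and Sgip1 (-1.13 to 0.02) included 0.

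The highest members stayed under 1.5-fold. Bahcc1 led with 44 and 59 (0.48, -0.11 to 1.08), followed by Sertad4, at the lncRNA gene A730013G03Rik, with 86 and 112 (0.44, 0.02 to 0.86) and by the member over Mir132 and Mir212. Scaled to all autosomal insertions, Sertad4 had 0.38 (-0.04 to 0.80), so its interval then included 0. H2bc11, at a tRNA gene, had 60 and 77, Sfi1 56 and 71 and Slc26a2 49 and 62. Snap25, the gene of a SNARE protein of synaptic vesicle release, had 89 and 112 at 34.2 kb (0.39, -0.02 to 0.81), and Cdk19 47 and 59. These 16 were picked by their ratio from 488 members, so their size is a description.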

How the data were processed

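ATAC-seq reads of 1 wild-type and 1 Gabra3 knockout library were analysed as aligned reads. Per the submitters' processing notes, Trimmomatic 0.33, BWA and bedtools 2.23.0 were used with GRCm38 (mm10). For BWA no version, and for none of the tools a purpose or duplicate filter, is given in the sources used here. In the deposited files the score of each line is its mapping quality, with no normalization, and the other columns used are the start, end and strand of each read. Insertions were placed at the read's 5-prime end, moved by 4 bp for plus-strand and -5 bp for minus-strand reads, at a mapping quality of at least 10 and once per position and strand and library. Calling used both libraries summed. The number of insertions per region (30 or more) sets the precision, given as exact 95% intervals that cover counting error only.

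Genes, strands, promoter windows and miRNAs came from RefSeq tables (GRCm38.p6). A strand was found for the nearest gene of all but 561 members. The sequence of the open regions themselves was not used here, so a planned motif search in them was not run; promoter windows were searched in its place, with motifs chosen after the data were seen. No test between groups was made, since each genotype has 1 library. The list of housekeeping genes is not reported here because it holds a gene that is left out of the text, so the lists given are not all those computed and cannot be read as a complete set.

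The members, the gene lists and the rule for named genes were chosen with earlier results of these data known. The rule took, by nearest protein-coding gene, the 15 strongest members, the 8 highest and 8 lowest ratios with at least 100 insertions and one direction on both strands, the 8 strongest groups, the 2 strongest members of each list given, the 5 strongest members at each kind of non-coding gene, every miRNA gene within 1 kb and the members nearest each limit. Other names were chosen after their values were seen. Alternatives changed the scaling, the repeats, mapping quality, minimum, pseudocount, region p and distance. Scripts ran in Python 3.11.15 with numpy 2.4.6, pandas 2.3.3 and scipy 1.17.1, and the caller and intervals were tested on simulated data.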

Additional observations from a re-analysis of the deposited data

How the results depend on the processing

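No ratio turned its sign under any of the alternatives run for the members as a class. Scaling to all autosomal insertions gave a median of -0.094 and a summed ratio of -0.099, and the trimmed mean of M values gave -0.012 and -0.017. With all reads kept the summed ratio was -0.12, and -0.04 once the 4 repeat-rich members were also left out, an alternative added after seeing the data. With at least 60 insertions 995 members were left, of which 0 were 2-fold higher, 1 was 2-fold lower, 12 were 1.5-fold higher and 29 were 1.5-fold lower. With a pseudocount of 2, 21 were 2-fold lower. A minimum of 20 insertions gave 4113 members. The other 55 of 67 values stayed within the 95% interval of the main value or, for counts, moved by at most 1.5-fold. For the summed ratio this interval covers counting error. For the median it came from the ranked ratios of the members (-0.06 to -0.02), so it describes spread across members and not counting error. The 55 include those for a mapping quality of at least 30 (2429 members), a window p under 1e-10 (2421), no other gene near (1766) and distance from the region centre (2647). No paired analysis was possible because each genotype has 1 library and the labels' numbers are not shared.

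Depth limits most members: at 30 to 49 insertions an interval within 2-fold was reached by 5.44% of them. No replicate shows how far 2 retinas of one genotype differ.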
